A study of Homo sapiens with 9 samples.

Results

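The response of wild-type U2OS cells to palbociclib was read from 6 of the 9 libraries of the series: the 3 libraries labelled as wild type on vehicle and the 3 labelled as wild type on palbociclib (named PD in the sample names). Every library of those groups was included, and each carries a set number from 1 to 3 that both groups share. U2OS is an established human osteosarcoma line, and poly(A) RNA from it was sequenced. Both groups had an unedited genotype and differed in the treatment, which in the drug group lasted 4 days. The other 3 libraries, PERK knockout cells on palbociclib, entered the statistical model to help estimate the spread and were compared with nothing here. No label says whether a set is a separate culture, so a p-value here rests only on how much these libraries vary, and that variation may be technical.

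Palbociclib is an inhibitor of CDK4 and CDK6, which with D-type cyclins phosphorylate the retinoblastoma protein (RB) and its relatives. Unphosphorylated RB holds the E2F transcription factors inactive, and the related DREAM complex, built on p107 or p130, E2F4 and the MuvB proteins, represses cell cycle genes through E2F and CHR sites in their promoters. U2OS cells keep a working RB protein, and CDK4/6 inhibition is known to arrest such cells in G1.

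The test covered 19408 genes that passed a low-count filter, and levels are given in CPM, the counts of a gene scaled to library size (TMM). At a Benjamini-Hochberg adjusted p under 0.05 (edgeR quasi-likelihood test), 8478 genes were called as changed, 43.7% of those tested, of which 4141 rose (21.3%) and 4337 fell (22.3%). Most of these changes were small. The median log2 fold change was 0.50 among genes that rose and -0.35 among genes that fell, and 50.16% and 68.8% of them, respectively, moved by less than 0.5 on the log2 scale. The larger changes were mostly increases: 782 genes rose and 286 fell by at least 1 on the log2 scale, and 105 rose and 11 fell by at least 2. Of genes under 1 CPM with vehicle 14.2% rose and 4.62% fell, and of those over 100 CPM 23.3% rose and 40.9% fell. A gene that passed the filter only through the palbociclib libraries had to rise, so these counts do not measure the balance of the response. When the fold itself was tested against 1.5, 795 genes passed (4.10% of those tested), 631 higher (3.25%) and 164 lower (0.845%). With the set number as a block in the model, 269 genes fell beyond 1.5-fold. The plot of all tested genes shows this asymmetry.

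**Figure D1:**
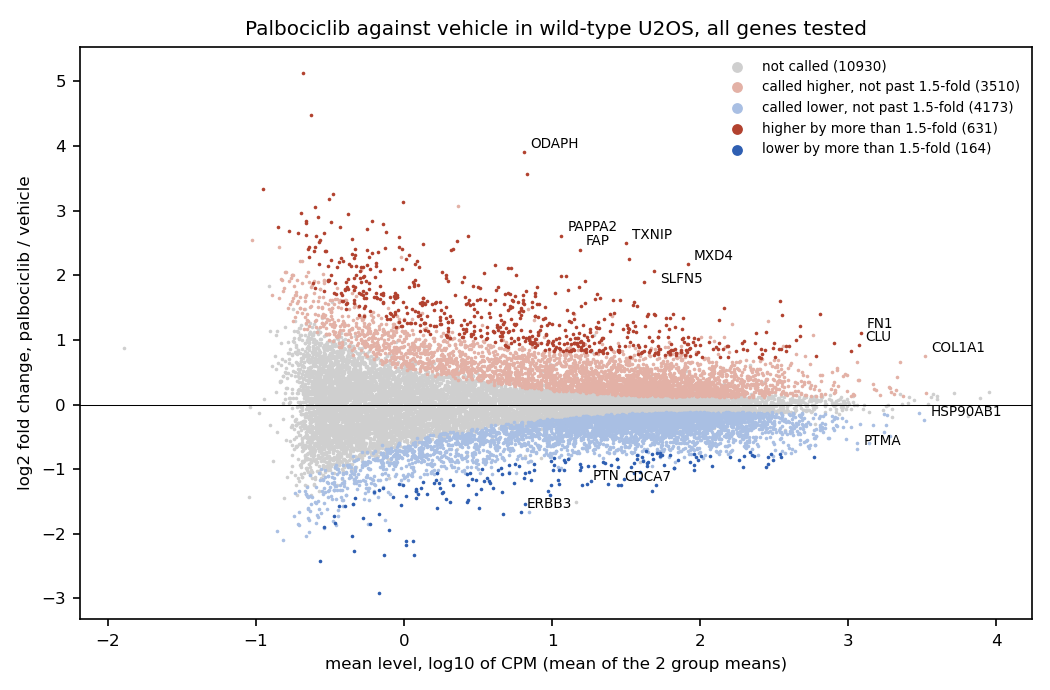
Each point is 1 of the 19408 genes tested, with the mean level (log10 of CPM) on the horizontal axis and the log2 fold change of palbociclib over vehicle on the vertical axis. Dark points, 631 higher and 164 lower, passed a test against a 1.5-fold change, light coloured points were called without passing it, and grey points were not called.

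Within each set the palbociclib library was compared with the vehicle library of the same number, and 99.42% of the genes that rose and 99.33% of those that fell moved in that direction in all 3 sets. The calls were made from these same libraries and favour genes whose sets move alike, so these shares describe the called genes and are no separate evidence of a uniform response. The 3 libraries of one group did not overlap those of the other for 10011 genes, 51.6% of those tested. The genes that rose held 22.48, 22.88 and 22.06% of all CPM in the vehicle libraries and 29.24, 29.71 and 29.71% in the palbociclib libraries. The genes that fell held 35.52, 35.27 and 34.77% with vehicle and 28.42, 28.22 and 27.12% with palbociclib. These shares are sums over genes called in the same libraries, so their direction was fixed by the choice of genes, and scaling to library size makes gains and losses balance over all genes. Library totals ran from 33674039 to 40933089 counts, and libraries correlated at 0.9927 or above within a group and at 0.9825 to 0.9846 between groups.

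The summed level of the mesenchymal and osteoblast markers lay far above that of the epithelial, haematopoietic or endothelial markers. Of 12 mesenchymal and osteoblast markers 11 passed the filter (TWIST1 did not). They summed to 6331 to 6881 CPM in the vehicle and 9722 to 11137 CPM in the palbociclib libraries, and 9 of them rose. With vehicle the highest means were those of COL1A1 (2467 CPM), SPARC (1732) and VIM (1038). The means of COL1A2 (1.42), ALPL (2.79) and PRRX1 (4.56) were low, under that of the epithelial CLDN4 (23.0). RUNX2 and PRRX1, transcription factors of that lineage, were not called (0.10 and -0.17 on the log2 scale). The epithelial markers that passed, 6 of 10, summed to 33.0 to 34.9 CPM with vehicle and 32.3 to 33.2 with palbociclib. Of these, CDH1 and ESRP1 were called higher at low levels (1.16 and 1.15 on the log2 scale) and 0 were called lower. Of the haematopoietic markers 3 of 10 passed, summing to 7.25 to 9.06 and 7.55 to 8.25 CPM, and of the endothelial markers 6 of 9, summing to 12.3 to 13.3 and 14.6 to 15.8 CPM. The haematopoietic PTPRC and LAPTM5 were called higher at low levels (0.96 and 1.08 on the log2 scale). Among the endothelial markers 2 rose and 2 fell. In bulk RNA a change in the number of cells of a type and a change in RNA per cell cannot be told apart.

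Among called genes at a mean of at least 5 CPM with a regular symbol, the highest fold change was that of ODAPH (ENSG00000174792.11, a protein-coding gene on chromosome 4, 75556048 to 75565885). ODAPH encodes a secreted phosphoprotein of tooth enamel formation (positions here and below are GENCODE release 29 on GRCh38, and a lone signed value in parentheses is a log2 fold change). Genes with only an ID or a clone name, and LINC, LOC and MIR genes, were left out of this ranking. In sets 1 to 3, ODAPH measured 0.633, 1.07 and 0.716 CPM with vehicle and 11.1, 13.8 and 11.8 CPM with palbociclib. This was a log2 fold change of 3.91 ± 0.17 (SE, edgeR adjusted p = 9.61e-13). All 3 palbociclib libraries lay far above the highest vehicle library. The 12 highest and 12 lowest genes were chosen among such called genes whose groups did not overlap, so the lack of overlap is no added support. PAPPA2, a protease that cleaves IGF-binding proteins, followed. The 3 sets had PAPPA2 at 3.16, 3.15 and 3.39 CPM with vehicle and at 20.9, 19.6 and 18.9 CPM with palbociclib. Its log2 fold change was 2.61 ± 0.094 (SE, edgeR adjusted p = 1.22e-13). FAP (ENSG00000078098.15, a protein-coding gene on chromosome 2, 162170684 to 162245151) encodes fibroblast activation protein, a cell-surface serine protease. The levels of FAP were 5.06, 4.78 and 4.93 CPM with vehicle and 24.9, 25.7 and 27.2 CPM with palbociclib, in the order of the sets. On the log2 scale the change was 2.40 ± 0.074 (SE, edgeR adjusted p = 8.99e-15). The libraries of each group lay close together for both proteases, with a wide gap between the groups.

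TXNIP and ARRDC4, alpha-arrestins that lower glucose uptake and are known targets of the MondoA and MLX transcription factors, were both among the 12. TXNIP stood at 5.72, 9.17 and 14.0 CPM in the vehicle and 35.1, 48.4 and 77.9 CPM in the palbociclib libraries (sets 1 to 3). The log2 fold change was 2.50 ± 0.44 (SE, edgeR adjusted p = 0.00413). The level rose in every set, but it also differed between the sets, with set 3 highest in both groups. In sets 1 to 3, ARRDC4 measured 4.20, 5.19 and 5.56 CPM with vehicle and 14.6, 18.2 and 26.3 CPM with palbociclib. Its log2 fold change was 1.99 ± 0.31. The groups did not overlap for either gene, as the rule for choosing the 12 required. PIK3IP1 (ENSG00000100100.13, a protein-coding gene on chromosome 22, 31281593 to 31292534), an inhibitor of PI3 kinase, was of similar size. The 3 sets had PIK3IP1 at 8.61, 12.9 and 13.2 CPM with vehicle and at 51.8, 54.0 and 59.2 CPM with palbociclib. This was a log2 fold change of 2.25 ± 0.14 (SE, edgeR adjusted p = 3.01e-06).

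SLFN5 (ENSG00000166750.10, a protein-coding gene on chromosome 17, 35243036 to 35273655), a member of the interferon-regulated Schlafen family, had the tightest palbociclib libraries of the 12. The levels of SLFN5 were 16.8, 20.5 and 19.0 CPM with vehicle and 78.8, 79.0 and 79.0 CPM with palbociclib, in the order of the sets. Its log2 fold change was 2.07 ± 0.061 (SE, edgeR adjusted p = 8.99e-15). The remaining members were NYAP2, an adaptor of PI3 kinase signalling in neurons (2.12 on the log2 scale), GALNT5, which starts mucin-type O-glycans (2.11), ABCC9, the sulfonylurea receptor SUR2 of potassium channels (2.00), CD163L1, a scavenger receptor (1.98), and MXD4 (2.18), described with its family below. Each of these 5 had groups that did not overlap, as the rule for choosing all of the 12 required.

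The 12 lowest fold changes were smaller in size, from -1.66 to -1.23. ERBB3 (ENSG00000065361.17, a protein-coding gene on chromosome 12, 56076799 to 56103505), the HER3 receptor, which has little kinase activity of its own and is a known target that FOXO factors raise, fell. ERBB3 stood at 9.60, 9.41 and 9.00 CPM in the vehicle and 3.21, 2.83 and 2.82 CPM in the palbociclib libraries (sets 1 to 3). On the log2 scale the change was -1.66 ± 0.11 (SE, edgeR adjusted p = 8.63e-10). NOTUM, an enzyme that inactivates Wnt ligands by removing their lipid, also fell. In sets 1 to 3, NOTUM measured 9.62, 9.71 and 9.94 CPM with vehicle and 3.15, 3.32 and 3.55 CPM with palbociclib. The log2 fold change was -1.54 ± 0.12 (SE, edgeR adjusted p = 3.37e-09). For both genes every palbociclib library lay below every vehicle library, with a gap wider than the spread within either group.

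CDCA7 (ENSG00000144354.15, a protein-coding gene on chromosome 2, 173354820 to 173368997), which works with the remodeller HELLS in DNA methylation, fell. The 3 sets had CDCA7 at 38.2, 40.7 and 38.3 CPM with vehicle and at 17.6, 16.6 and 14.95 CPM with palbociclib. This was a log2 fold change of -1.25 ± 0.068 (SE, edgeR adjusted p = 4.36e-11). SAPCD2, a regulator of spindle orientation, went from 71.4 to 30.2 CPM (-1.24 on the log2 scale). TGFBR3, the TGF-beta co-receptor betaglycan, went from 22.5 to 9.53 CPM (-1.24) and PTN, the growth factor pleiotrophin, from 24.1 to 10.3 CPM (-1.23). SLCO4A1, an organic anion transporter (-1.40), TNFRSF13C, the BAFF receptor (-1.25), ARSJ, an arylsulfatase (-1.24), RHBDL3, of the rhomboid family (-1.23), and CCDC144NL (-1.34) completed the group. CCDC144NL has near-identical copies in the genome, so its counts are uncertain. TNFAIP6, which encodes the hyaluronan-binding protein TSG-6, had the lowest estimate (-1.66), but its 3 vehicle libraries spread widely (5.22, 11.9 and 14.9 CPM, against 2.15, 3.56 and 4.29 with palbociclib). Its call was lost in 9 alternative fits, with an edgeR adjusted p of 0.0959 without vehicle set 2, 0.105 without vehicle set 3, and 0.108, 0.0966 and 0.0711 without palbociclib sets 1, 2 and 3. Set 1 was lowest in both groups, and TNFAIP6 kept its call with the set as a block.

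**Figure D2:**
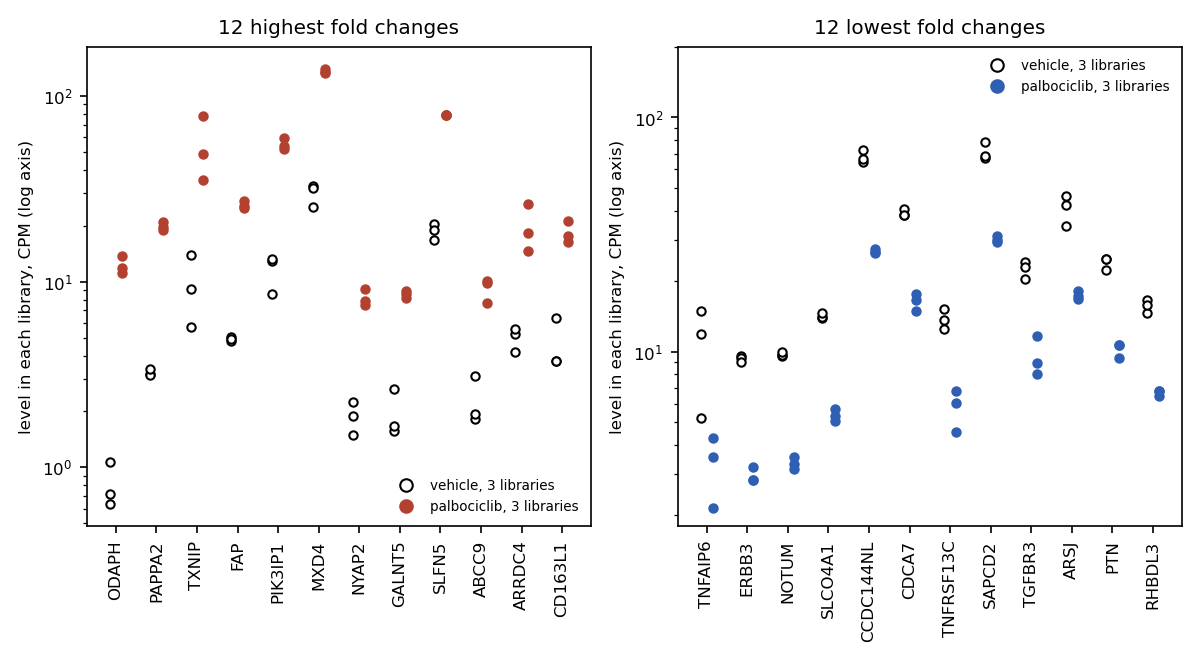
The level of each of the 12 genes with the highest (left) and the 12 with the lowest (right) log2 fold change is plotted on a logarithmic CPM axis, with 1 open circle per vehicle library and 1 filled circle per palbociclib library (3 each). The filled circles lie above the open ones for every gene on the left and below them for every gene on the right, as the choice of genes required. The spread of TNFAIP6 and TXNIP within a group is the widest.

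In CPM, a small number of genes carried much of the change among called genes. Of the CPM gained by genes called higher, 229 genes carried 50%, and of the CPM lost by genes called lower, 363 genes carried 50%. The 5 largest gains were in COL1A1, the alpha-1 chain of type I collagen, SPARC, FN1, which encodes fibronectin, CLU, the secreted chaperone clusterin, and PLEC, the cytoskeletal linker plectin. COL1A1 stood at 2379, 2622 and 2400.0 CPM with vehicle and 3682, 4203 and 4515 with palbociclib (0.74 ± 0.14 on the log2 scale). CLU stood at 830.0, 833 and 784 CPM with vehicle and 1467, 1522 and 1633 with palbociclib (0.92 ± 0.054), and PLEC at 1923, 1891 and 1643 CPM with vehicle and 2414, 2363 and 2573 with palbociclib (0.43 ± 0.065). No library of one group reached the range of the other for these genes.

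The 5 largest losses were in DHRS2, a short-chain dehydrogenase, HSP90AA1 and HSP90AB1, the 2 cytosolic HSP90 chaperones, PTMA, the acidic nuclear protein prothymosin alpha, and HNRNPA2B1, an RNA-binding protein. PTMA stood at 1403, 1421 and 1436 CPM with vehicle and 841, 902 and 894 with palbociclib (-0.69 ± 0.048, edgeR adjusted p = 1.00e-09). DHRS2 went from a mean of 2239 to 1596 CPM (-0.49) and HNRNPA2B1 from 2019 to 1502 CPM (-0.43). Several of these mRNAs have processed pseudogenes of near-identical sequence, so a part of their reads may be counted elsewhere.

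The genes that build and feed the RB and DREAM system moved in both directions. Of 29 genes on that list 27 were tested, 6 rose and 17 fell. Over all genes tested 21.3% rose and 22.3% fell, and the share of the list that rose lay near that. The median log2 fold change of the list was -0.35, against -0.02 over all genes tested. Among the cyclins of CDK4 and CDK6, the largest rise was that of CCND2 (ENSG00000118971.9, a protein-coding gene on chromosome 12, 4273772 to 4305350), encoding cyclin D2. The levels of CCND2 were 176, 181 and 163 CPM with vehicle and 527, 523 and 525 CPM with palbociclib, in the order of the sets. Its log2 fold change was 1.60 ± 0.050 (SE, edgeR adjusted p = 8.99e-15). The palbociclib libraries lay close together and well above the vehicle libraries. CCND3, encoding cyclin D3, was not called (0.11, edgeR adjusted p = 0.235), but was called higher without palbociclib set 3 (edgeR adjusted p = 0.00939).

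The inhibitors of cyclin-dependent kinases moved both ways. CDKN1A, encoding p21, rose from 174 to 211 CPM (0.28 ± 0.055, edgeR adjusted p = 0.000316). CDKN1C, encoding p57, was under 1 CPM in all 6 libraries and was not called (-0.36, edgeR adjusted p = 0.425). CDKN2D (-0.25, edgeR adjusted p = 0.0407) was called lower but lost its call in 8 alternatives (adjusted p from 0.0574 to 0.170). CDKN2C, encoding p18, an inhibitor of CDK4 and CDK6, fell. CDKN2C stood at 75.4, 72.3 and 76.2 CPM in the vehicle and 40.1, 41.4 and 35.3 CPM in the palbociclib libraries (sets 1 to 3). On the log2 scale the change was -0.94 ± 0.066 (SE, edgeR adjusted p = 1.46e-09). CDKN1B, encoding p27, fell too. In sets 1 to 3, CDKN1B measured 74.9, 78.8 and 84.9 CPM with vehicle and 45.5, 48.1 and 45.5 CPM with palbociclib. The log2 fold change was -0.78 ± 0.055 (SE, edgeR adjusted p = 1.14e-09). For both, every palbociclib library was lower than every vehicle library. Of the pocket proteins, RBL1, which encodes p107, fell from 59.6 to 35.2 CPM (-0.76 ± 0.058), while RBL2, which encodes p130, rose from 63.0 to 73.2 CPM (0.22 ± 0.053). Of the MuvB core proteins that were tested, LIN9 (-0.50), LIN52 (-0.48) and LIN54 (-0.35) fell and LIN37 was not called (-0.04). E2F1 fell (-0.72) and E2F3 was not called (0.00). Targets that mark cycling cells, MKI67 (-0.81), FOXM1 (-0.80) and MYBL2 (-0.71), fell.

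The promoters of 6 genes that fell are shown because they hold the letters that E2F and the MuvB complex are known to read. RefSeq promoter windows on GRCh38.p14, 250 bases before to 50 after the start of a gene, were searched on both strands for the E2F motifs TTTCCCGC and TTTGGCGC and the CHR motif TTTGAA. Each sequence is 90 bases of the gene's own strand, 5′ to 3′, and capitals mark the motif (or its reverse complement, for CDCA7 and TYMS). The DMC1 stretch (chr22:38570174-38570263, minus strand) runs 10 bases past the start and holds overlapping matches on both strands. The others lie before the RefSeq start of E2F1 (chr20:33686386-33686475, minus strand), RBL1 (chr20:37095998-37096087, minus strand), CDCA7 (chr2:173354762-173354851, plus strand), TYMS (chr18:657563-657652, plus strand) and MKI67 (chr10:128126426-128126515, minus strand).
DMC1: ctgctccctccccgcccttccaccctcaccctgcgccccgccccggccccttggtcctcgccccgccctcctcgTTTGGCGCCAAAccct
E2F1: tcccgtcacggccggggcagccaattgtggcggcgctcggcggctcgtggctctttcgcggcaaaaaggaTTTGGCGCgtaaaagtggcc
RBL1: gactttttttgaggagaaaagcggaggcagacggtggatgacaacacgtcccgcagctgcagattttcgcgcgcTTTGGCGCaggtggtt
CDCA7: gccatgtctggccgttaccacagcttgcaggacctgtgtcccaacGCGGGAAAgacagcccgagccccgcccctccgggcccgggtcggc
TYMS: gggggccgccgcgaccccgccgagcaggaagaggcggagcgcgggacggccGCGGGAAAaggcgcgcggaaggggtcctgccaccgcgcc
MKI67: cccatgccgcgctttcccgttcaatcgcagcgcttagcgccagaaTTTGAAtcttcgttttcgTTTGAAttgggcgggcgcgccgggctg

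Over all tested protein-coding genes with a window (11160 of 13819, 80.8%), the motif TTTGGCGC was in 61 of 3089 windows of genes that fell (1.97%), in 53 of 8071 windows of genes that did not fall (0.657%) and in 0.659% of all 27305 RefSeq windows. TTTCCCGC was in 3.43% of windows of genes that fell, 2.07% of those that did not and 1.66% of all. The CHR motif was in 11.7 and 9.37%, against 15.4% of all windows. The CLEAR motif GTCACGTG, read by TFEB, was in 4.44 and 3.95% (2.53% of all), an order that turned when any listed start was used (4.89 and 4.94%), and the FOXO motif GTAAACA in 2.07 and 2.35% (3.41% of all). The median log2 fold change was -0.216 for genes with TTTGGCGC and -0.024 for genes without it. These shares are descriptions, and a match in a window is not evidence of binding. Most genes that fell held neither E2F motif (5.37% held at least 1). A share for genes that rose is not given, since 79.8% of them had a window.

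Falls outnumbered rises in lists of nucleotide synthesis, DNA repair, the nuclear pore and chromatin. Over all genes tested 22.3% fell and 21.3% rose, and of genes over 100 CPM with vehicle 40.9% fell and 23.3% rose. Of 30 genes of purine and pyrimidine synthesis, all tested, 24 fell and 2 rose (median log2 fold change -0.31). DUT, the dUTPase that keeps uracil out of DNA, stood at 124, 123 and 130.3 CPM with vehicle and 72.6, 67.3 and 67.7 with palbociclib (-0.86 ± 0.053, edgeR adjusted p = 2.05e-10). TYMS, thymidylate synthase, went from 196 to 115 CPM (-0.77) and RRM2, a subunit of ribonucleotide reductase, from 517 to 309 CPM (-0.74). ADSS1, the muscle-type adenylosuccinate synthase, was a member that rose (1.04, from 1.62 to 3.33 CPM).

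Of 28 tested genes of base excision and mismatch repair (30 listed), 18 fell and 1 rose, with a median of -0.21. The glycosylase NEIL3 (-0.75) and the ligase LIG1 (-0.64) fell, and MPG, the alkyladenine glycosylase, rose (0.48). Of 29 tested genes of the nuclear pore complex (30 listed), 24 fell and 0 rose, with a median of -0.34, and with the set as a block 25 fell and 1 rose. The falls were modest. NDC1, which anchors the pore in the membrane, went from 121 to 82.3 CPM (-0.56), NUP210 from 60.6 to 43.01 (-0.50) and NUP54 from 91.6 to 65.6 (-0.48). None of the pore genes passed the test against 1.5-fold.

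Of 29 tested genes of DNA methylation and Polycomb repression (31 listed), 17 fell and 2 rose, with a median of -0.23. DNMT1, the maintenance methyltransferase, stood at 301, 288 and 267 CPM with vehicle and 173, 172 and 153 with palbociclib (-0.78 ± 0.062). The de novo enzymes went different ways: DNMT3B fell from 53.7 to 29.2 CPM (-0.88 ± 0.071) and DNMT3A rose from 42.7 to 49.6 CPM (0.21 ± 0.063). EZH2, the H3K27 methyltransferase of Polycomb complex PRC2, fell from 47.8 to 27.7 CPM (-0.79 ± 0.063), and PHC2, a subunit of PRC1, rose (0.39).

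Translation factors changed little. Of 35 tested (40 listed) 14 fell and 3 rose, with a median of -0.08, a share of falls above and of rises below that of all genes tested. EIF2B3, a subunit of the exchange factor of eIF2 (-0.44), and EIF1AX (-0.37) fell, and EEF2, the elongation factor that moves the ribosome, rose (0.19).

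Chaperones of the HSP90 system and their HSP70, HSP60 and HSP10 partners fell, a group put together after the values of HSP90AA1 and HSP90AB1 were seen. Of 15 genes, 13 fell, 1 rose (CDC37, the cochaperone of kinases, 0.27) and 1 was not called (HSP90B1 of the endoplasmic reticulum, 0.09). Over all genes tested 22.3% fell and 21.3% rose. Most of the 15 were over 100 CPM with vehicle, a level at which 40.9% of genes fell and 23.3% rose. With the set as a block HSP90B1 was called higher (edgeR adjusted p = 0.0362). HSP90AA1 (ENSG00000080824.19, a protein-coding gene on chromosome 14, 102080738 to 102139699) encodes the inducible cytosolic form. The 3 sets had HSP90AA1 at 1789, 1701 and 1518 CPM with vehicle and at 1190.0, 1152 and 989.9 CPM with palbociclib. This was a log2 fold change of -0.59 ± 0.083 (SE, edgeR adjusted p = 6.95e-05). HSP90AB1, the constitutive form, went from 3542 to 3010.0 CPM (-0.23), the cochaperone STIP1 from 495 to 357 CPM (-0.47), FKBP5 from 48.7 to 33.3 CPM (-0.55), and HSPE1, the mitochondrial chaperonin HSP10, from 65.6 to 45.2 CPM (-0.54). HSP90AA1 also differed between sets, with set 3 lowest in both groups.

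MXD4 (ENSG00000123933.17, a protein-coding gene on chromosome 4, 2247432 to 2262294) encodes MAD4, a partner of MAX that represses at sites where MYC and MAX activate. The levels of MXD4 were 25.2, 32.5 and 32.1 CPM with vehicle and 133, 134 and 140.0 CPM with palbociclib, in the order of the sets. Its log2 fold change was 2.18 ± 0.077 (SE, edgeR adjusted p = 1.84e-11). The vehicle and palbociclib libraries were widely separated. The rest of the MYC and MAX network was then listed, after this value was seen. Of 12 tested genes 6 rose, MXD4 among them, and 5 fell, against 21.3% higher and 22.3% lower over all genes tested. Most of the 12 were at 10 to 100 CPM with vehicle, a level at which 25.5% of genes rose and 31.9% fell. The MAX partners of the MXD and MNT type that rose beside MXD4 were MXD1 (0.79 ± 0.13), MXI1 (0.42 ± 0.053) and MNT (0.23 ± 0.068). MXD3 was the MXD member that fell, from 45.0 to 27.0 CPM (-0.74 ± 0.072). MAX itself rose slightly (0.19 ± 0.045), and MGA, another MAX partner, fell (-0.36 ± 0.056).

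Of the MYC genes, MYC rose and MYCN and MYCL fell. MYC stood at 116, 97.7 and 102 CPM in the vehicle and 133, 134 and 136 CPM in the palbociclib libraries (sets 1 to 3). On the log2 scale the change was 0.35 ± 0.055 (SE, edgeR adjusted p = 2.70e-05). In sets 1 to 3, MYCN measured 1.06, 1.31 and 1.43 CPM with vehicle and 0.147, 0.351 and 0.474 CPM with palbociclib. The log2 fold change was -1.94 ± 0.34 (SE, edgeR adjusted p = 0.000107). Both MYCN levels were low, and the groups overlapped for neither gene. MYCL (-0.81, edgeR adjusted p = 0.024) lost its call without vehicle set 2 or 3 or palbociclib set 1 or 2 (edgeR adjusted p = 0.0631, 0.0682, 0.0707 and 0.082). It kept the call with the set as a block. MLX, the partner of MondoA, fell slightly (-0.19, edgeR adjusted p = 0.00814), and its call was lost without vehicle set 3 (edgeR adjusted p = 0.0527). MLXIP, which encodes MondoA, was not called (0.14, edgeR adjusted p = 0.118).

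**Figure D3:**
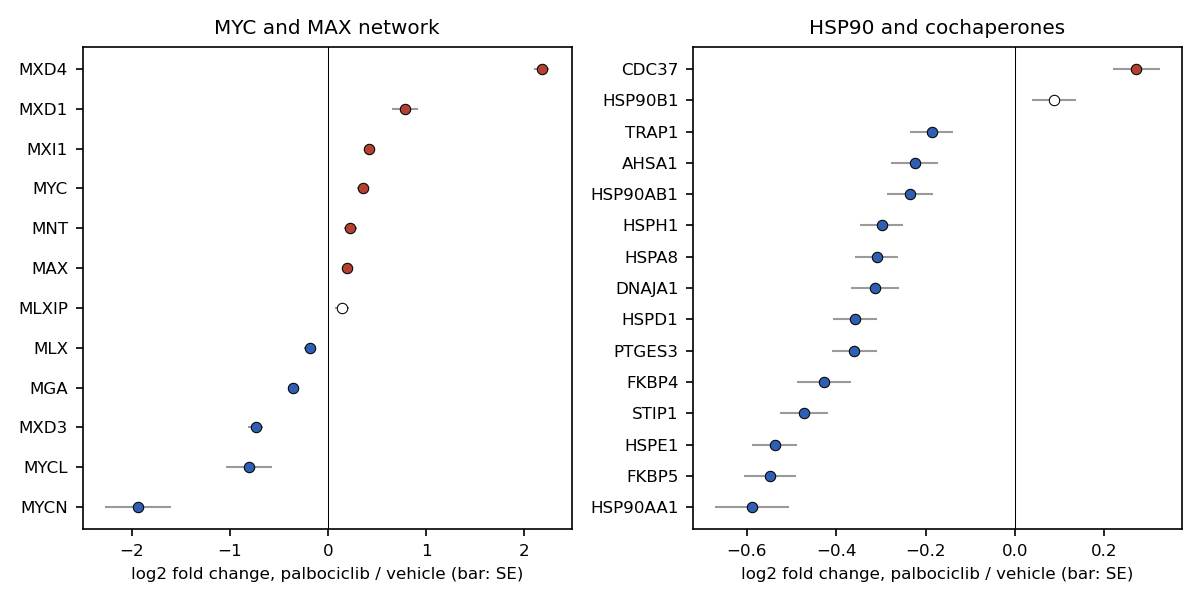
Points are log2 fold changes of palbociclib over vehicle and bars their SE, for 12 genes of the MYC and MAX network (left) and 15 genes of the HSP90 system (right). Red and blue points were called higher and lower and open points were not called. MXD4 stands apart at 2.18 and MYCN at -1.94, and 13 of the 15 chaperone genes lie below 0.

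Signalling genes moved in both directions within most pathways, against 21.3% higher and 22.3% lower over all genes tested. Of 29 tested targets of FOXO and insulin feedback genes (30 listed), 14 rose and 7 fell, with a median of 0.19. Beside TXNIP and PIK3IP1, FBXO32, the ubiquitin ligase atrogin-1, rose from 5.11 to 11.8 CPM (1.21 ± 0.14), whereas ERBB3, CDKN1B and BCL2L11, the last encoding the death protein BIM (-0.30), fell. Of 27 tested output genes of the ERK pathway (30 listed), 13 rose and 1 fell, with a median of 0.16, and with the set as a block 13 rose and 3 fell. EGR1, an immediate early transcription factor, stood at 23.5, 25.8 and 27.6 CPM with vehicle and 52.7, 69.0 and 57.1 with palbociclib (1.22 ± 0.098). AREG, the EGF receptor ligand amphiregulin, rose from 2.98 to 6.20 CPM (1.05).

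Of 42 tested receptor tyrosine kinases (51 listed) 15 rose and 9 fell, with a median of 0.15. Over all genes tested 21.3% rose and 22.3% fell, and the share of receptor kinases that fell lay near that. ROS1, an orphan receptor, stood at 2.68, 3.93 and 3.88 CPM with vehicle and 11.3, 12.4 and 13.3 with palbociclib (1.82 ± 0.15). The ephrin receptors EPHB1 and EPHB3 moved apart: EPHB1 rose from 3.00 to 9.75 CPM (1.69) and EPHB3 fell from 20.4 to 10.7 CPM (-0.93). TIE1, a receptor of endothelial cells, stood at 0.810, 0.558 and 0.633 CPM with vehicle and 3.36, 3.83 and 3.34 with palbociclib (2.39), and other endothelial markers moved both ways, with VWF at 0.81 and ERG at -0.51. Of 31 tested growth factors of the fibroblast, vascular and platelet families and related ligands (41 listed), 13 rose and 6 fell, with a median of 0.21. FGF1 rose (13.8, 12.5 and 9.58 to 31.6, 30.4 and 25.1 CPM, 1.28 ± 0.13), as did FGF5 (1.12) and GRN, the precursor of the granulins (0.96). PGF, placental growth factor (-1.02), and NTF3, neurotrophin-3 (-0.72), fell.

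Among developmental pathways, Hedgehog genes fell more often than they rose. Over all genes tested 21.3% rose and 22.3% fell, and the falls among TGF-beta and Notch genes lay near that share. Of 18 tested Hedgehog genes (21 listed) 8 fell and 2 rose, with a median of -0.21, and the falls included its target genes GLI1 (38.4 to 23.3 CPM, -0.72) and HHIP (-1.06). The primary cilium, in which that pathway signals, went the other way: of 53 tested genes (54 listed) 20 rose and 6 fell, with a median of 0.08. KIF17, a ciliary kinesin, rose from 5.09 to 11.1 CPM (1.12), BBS12, a Bardet-Biedl syndrome chaperonin, from 5.20 to 10.5 (1.02), and TCTN1, of the transition zone, from 10.8 to 18.2 (0.76). Of 49 tested genes of TGF-beta and BMP signalling (52 listed) 17 rose and 10 fell (median 0.02). LTBP2, a latent TGF-beta binding protein (0.91), and TGFBI (0.79) rose, and ID4, a BMP target (-0.97), and FST, encoding the activin trap follistatin (-0.64), fell. Of 29 tested Notch genes (37 listed) 9 rose and 6 fell (median 0.03). The ligand JAG1 fell (31.5, 33.99 and 33.8 to 17.0, 17.3 and 17.3 CPM, -0.94 ± 0.065) and LFNG, the fringe enzyme that modifies Notch, rose (122 to 176 CPM, 0.53). Of 26 tested clock genes (29 listed) 10 fell and 3 rose (median -0.11), with PER2 down (-0.78), PER3 down (-0.43) and BHLHE40, a repressor of clock genes, up (0.82).

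Genes of the cell surface, its protease inhibitors and its contractile skeleton rose more often than they fell in the lists counted, against 21.3% higher and 22.3% lower over all genes tested. Serpins, a family of protease inhibitors and relatives, had the largest share of rises among the lists. Of 35 serpin genes 15 passed the filter, 3 of these at under 1 CPM in all 6 libraries. Of the 15 tested 13 rose and 0 fell, with a median of 0.78, and 6 passed the test against 1.5-fold. A serpin that passed the filter only through the palbociclib libraries had to rise, so these counts do not measure the response of the family. SERPINB7 stood at 11.2, 9.05 and 7.93 CPM with vehicle and 35.3, 30.8 and 26.3 with palbociclib (1.71 ± 0.17). SERPINA1, encoding alpha-1 antitrypsin, stood at 7.37, 7.55 and 9.55 CPM with vehicle and 20.7, 23.9 and 25.4 with palbociclib (1.52 ± 0.11). The groups did not overlap for either gene.

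Of 39 complement and coagulation genes 27 were tested, 12 rose and 3 fell (median 0.25). PROS1, encoding the anticoagulant protein S, stood at 17.2, 19.1 and 19.5 CPM with vehicle and 42.1, 42.2 and 41.6 with palbociclib (1.18 ± 0.062), and C1S, a protease of the complement pathway, rose from 4.11 to 7.84 CPM (0.93). F2R, the thrombin receptor PAR1, fell from 88.9 to 44.9 CPM (-0.99 ± 0.12). Of 46 ADAM and ADAMTS genes 32 were tested, 17 rose and 5 fell (median 0.25), with ADAM12 at 62.9, 65.4 and 54.0 CPM with vehicle and 112, 133 and 112 with palbociclib (0.97). ADAMTS7, a cartilage matrix protease (1.32), and ADAMTS16 (1.03) rose as well, and ADAM11 (-0.81) and ADAM22 (-0.68), members without protease activity, fell.

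Of 25 integrin genes 20 were tested, 11 rose and 1 fell (median 0.25; 2 fell with the set as a block). ITGA3, the alpha subunit of a laminin receptor, stood at 549.7, 553 and 531 CPM with vehicle and 1020.0, 1076 and 1055 with palbociclib (0.95 ± 0.055), and ITGB2, the beta subunit best known from leukocytes, rose from 8.95 to 16.1 CPM (0.84). Of 32 tetraspanin genes, whose products organise membrane domains around integrins, 27 were tested, 16 rose and 1 fell (median 0.30). TSPAN3 stood at 88.2, 89.8 and 84.6 CPM with vehicle and 158, 166 and 151 with palbociclib (0.85 ± 0.049). Of 38 tested actin, contractile and SRF target genes (42 listed) 21 rose and 6 fell (median 0.18). TAGLN, the smooth muscle protein transgelin, rose from 37.8 to 85.1 CPM (1.17 ± 0.12), MYL9, a myosin light chain, from 196 to 352 (0.84) and CNN1, calponin, from 59.2 to 101 (0.77).

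Of 39 tested genes of glycosaminoglycan synthesis (47 listed) 18 rose and 2 fell (median 0.13). CHPF, a subunit of chondroitin polymerase, stood at 81.2, 74.2 and 71.7 CPM with vehicle and 209, 221 and 211 with palbociclib (1.498 ± 0.059, edgeR adjusted p = 2.49e-13). UST, a uronyl sulfotransferase that also acts on chondroitin, rose from 5.82 to 12.3 CPM (1.08), and HS6ST1, a heparan sulfate sulfotransferase, fell from 105 to 76.3 (-0.46). Of 58 semaphorins, plexins, slits, netrins, ephrins and their receptors 54 were tested, 18 rose and 10 fell (median 0.15). SEMA6B fell (109.8, 122 and 127 to 60.5, 61.5 and 65.8 CPM, -0.93 ± 0.060), as did NRP1, the co-receptor neuropilin-1 (-0.79), and NTNG1, a membrane-anchored netrin, rose (0.95). Of 121 cadherins and protocadherins 51 were tested, 11 of these at under 1 CPM in all 6 libraries, and 16 rose and 5 fell (median 0.03), with the giant cadherin FAT3 up (1.34) and PCDH18 down (-0.49).

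**Figure D4:**
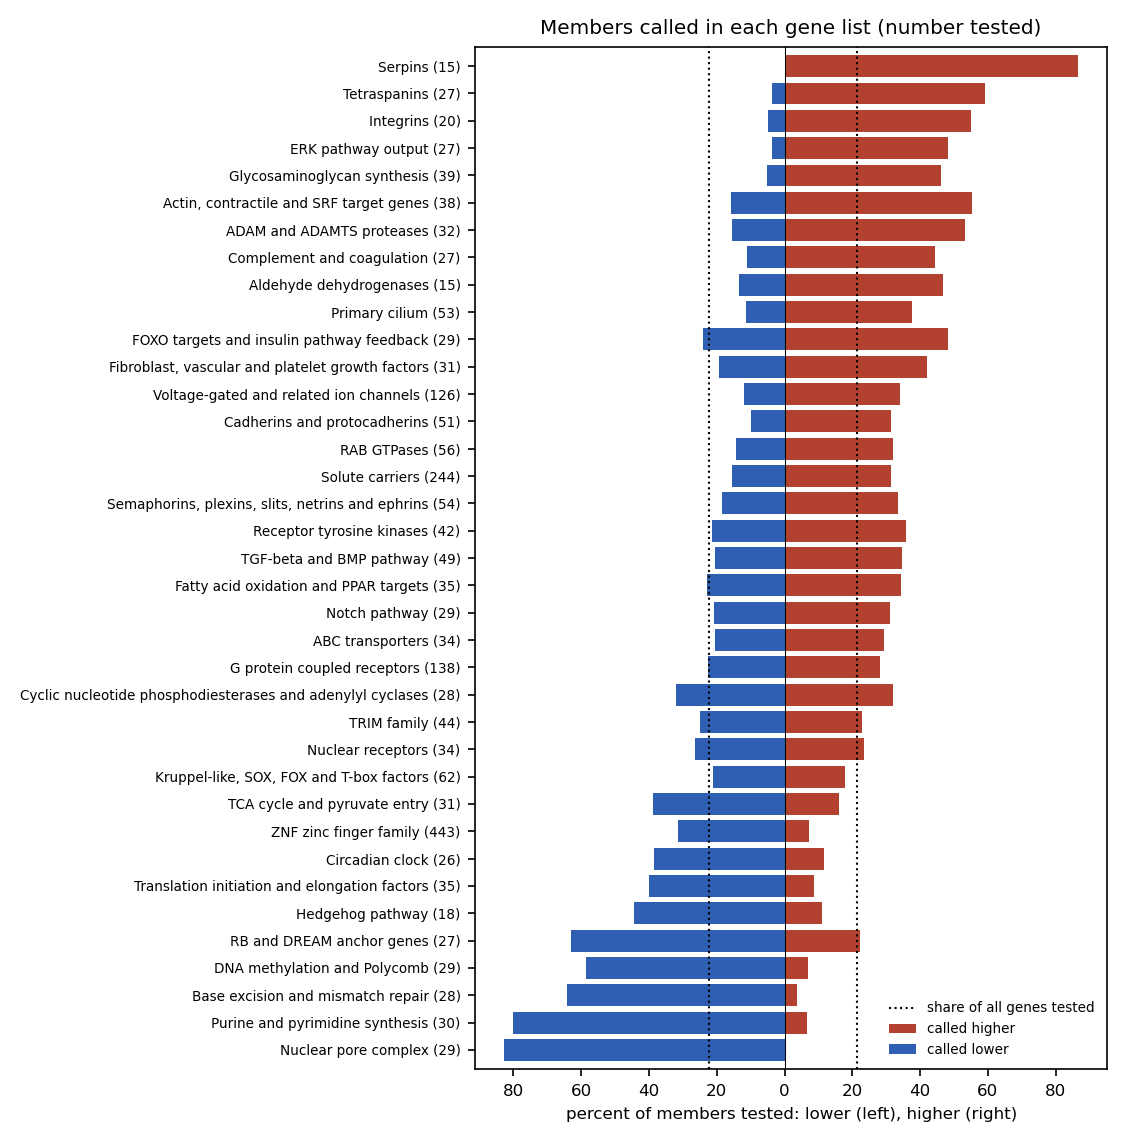
For each gene list shown, bars give the percent of tested members called lower (left, blue) and higher (right, red), with the number tested in parentheses and lists ordered by the difference. Dotted lines mark the shares over all genes tested, 21.3% higher and 22.3% lower. Serpins, tetraspanins and integrins lie at the top, and nucleotide synthesis and the nuclear pore at the bottom.

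Metabolic lists were mixed, against 21.3% higher and 22.3% lower over all genes tested. Of 31 tested genes of the TCA cycle and pyruvate entry (32 listed) 12 fell and 5 rose (median -0.09). MDH1, the cytosolic malate dehydrogenase (231 to 169 CPM, -0.45), and the succinate dehydrogenase subunits SDHB (-0.41) and SDHD (-0.38) fell, and IDH2, the mitochondrial isocitrate dehydrogenase, rose (18.5, 21.5 and 21.9 to 34.5, 36.3 and 37.5 CPM, 0.81 ± 0.068). Of 35 tested genes of fatty acid oxidation and PPAR targets (39 listed) 12 rose and 8 fell, with a median of -0.01 that changed sign with the scaling. The peroxisomal oxidase ACOX3 rose (0.66) and the coactivator PPARGC1B fell (-0.69). Of 15 tested aldehyde dehydrogenases (18 listed) 7 rose and 2 fell (median 0.23), with ALDH1L2, of mitochondrial folate metabolism, up from 26.5 to 45.2 CPM (0.77 ± 0.074).

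Solute carriers and ion channels held more rises than falls, against 21.3% higher and 22.3% lower over all genes tested. Of the tested members, 27 carriers, 27 channels and 29 G protein coupled receptors were under 1 CPM in all 6 libraries, a level at which rises outnumbered falls over all genes too (14.2 and 4.62% of genes under 1 CPM with vehicle) and at which a gene that passes the filter only through palbociclib had to rise. Of 244 tested solute carriers (349 listed) 77 rose and 38 fell (median 0.12). SLC46A3, a lysosomal carrier, stood at 7.27, 7.57 and 7.90 CPM with vehicle and 19.5, 20.8 and 20.6 with palbociclib (1.42 ± 0.078). SLC12A8 (1.33) and the neuronal amino acid carrier SLC6A17 (1.61) rose as well, and SLC27A6, of the fatty acid transport family, fell (2.66 to 1.04 CPM, -1.35). Of 126 tested ion channel genes (182 listed) 43 rose and 15 fell (median 0.14), with the voltage-gated potassium channel KCNA1 up from 5.87 to 14.0 CPM (1.25), ANO2, a calcium-activated chloride channel, up from 22.0 to 50.9 (1.21), and the background potassium channel KCNK10 down to 0.562 CPM (-1.41).

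The counts of G protein coupled receptors and ABC transporters lay closer to the shares over all genes tested than those of the carriers and channels. Of 138 tested G protein coupled receptors (260 listed) 39 rose and 31 fell (median 0.07). HTR2A, a serotonin receptor, rose (2.30, 4.49 and 4.16 to 8.75, 12.7 and 11.4 CPM, 1.59 ± 0.26), as did PTGFR, the prostaglandin F receptor (1.12), and the ADP receptor P2RY1 (-1.06) and the adhesion receptor ADGRV1 (-1.01) fell. Of 34 tested ABC transporters (49 listed) 10 rose and 7 fell, with ABCG2, a drug efflux pump, down from 4.70 to 1.90 CPM (-1.30) and ABCA3, a lipid transporter, up (1.07). Of 28 tested cyclic nucleotide phosphodiesterases and adenylyl cyclases (33 listed) 9 rose and 9 fell. PDE1B (-1.21) fell and ADCY2 (1.05) rose.

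Beyond 1.5-fold, 3 of the 56 tested RAB genes and 0 of the 44 tested TRIM genes changed, against 4.10% of all genes tested. Of the RAB genes (64 listed) 18 rose and 8 fell (median 0.11), against 21.3% higher and 22.3% lower over all genes tested. RAB40B stood at 6.23, 6.58 and 7.40 CPM with vehicle and 23.1, 22.3 and 25.9 with palbociclib (1.82 ± 0.091), and RAB7B, a regulator of traffic from endosomes, rose from 8.78 to 18.8 CPM (1.09). Of the TRIM genes (75 listed) 10 rose and 11 fell, both near the shares over all genes tested.

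The zinc finger genes were the longest list. Of 443 tested ZNF genes (557 listed) 139 fell and 32 rose, with a median of -0.12, against 22.3% lower and 21.3% higher over all genes tested. The falls were small and 1 gene, ZNF492 (-0.95), passed the test against 1.5-fold. ZNF367, known as an E2F target, fell from 53.0 to 29.2 CPM (-0.86). ZNF genes lie in clusters of similar sequence, so their reads may be divided between copies. Of 62 tested Kruppel-like, SOX, FOX and T-box factors (96 listed) 11 rose and 13 fell, and with the set as a block 15 rose and 22 fell. SOX4 rose (55.8, 62.4 and 63.7 to 102, 111 and 121 CPM, 0.88 ± 0.082), as did KLF9 (0.73), and SOX2 (-1.07) and FOXA2 (-0.88) fell. Of 34 tested nuclear receptors (43 listed) 8 rose and 9 fell, and VDR, the vitamin D receptor, rose from 21.1 to 25.9 CPM (0.30).

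Some genes went from under 0.25 CPM in all 3 libraries of one group to over 0.5 CPM in all 3 of the other. Of 19408 genes tested, there were 25 such genes among those that rose and 4 among those that fell, and none when the lower limit was 0.1 CPM. A gene at these levels may pass the low-count filter only through the group where it is high. The counts therefore do not measure the balance of rises and falls. TP63, the p53 relative of epithelia, stood at 0.0760, 0.243 and 0.220 CPM with vehicle and 1.03, 1.65 and 1.11 with palbociclib. ITIH3, a hyaluronan-binding plasma protein, stood at 0.203, 0.194 and 0.220 CPM with vehicle and 0.884, 1.75 and 1.32 with palbociclib, and CHAT, choline acetyltransferase, at 0.228, 0.243 and 0.248 CPM with vehicle and 0.678, 1.59 and 0.921 with palbociclib. The non-coding LINC01943 and the gene ENSG00000227015 had similar values (means of 1.02 and 1.07 CPM with palbociclib). All of these levels are low.

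Of the 4 genes that fell below the limit, DMC1 (ENSG00000100206.11, a protein-coding gene on chromosome 22, 38518949 to 38570286), the recombinase of meiosis, had the lowest log2 fold change. The 3 sets had DMC1 at 1.37, 1.29 and 0.936 CPM with vehicle and at 0.177, 0.108 and 0.184 CPM with palbociclib. This was a log2 fold change of -2.92 ± 0.34 (SE, edgeR adjusted p = 9.39e-07). Its promoter, printed above, holds the E2F motif at the start site. BDKRB2, the bradykinin B2 receptor, stood at 0.760, 0.728 and 0.798 CPM with vehicle and 0.206, 0.189 and 0.0790 with palbociclib, CD74, the invariant chain of MHC class II, at 0.684, 0.776 and 0.716 CPM with vehicle and 0.118, 0.162 and 0.237 with palbociclib, and CACNG5, a calcium channel subunit, at 0.506, 0.776 and 0.523 CPM with vehicle and 0.177, 0.216 and 0.211 with palbociclib. Other meiotic genes and DMC1 partners were looked at after this value was seen. Of 8 tested, 2 fell (DMC1, which prompted the list, and PSMC3IP) and 1 rose (HORMAD1, 0.31). The shares over all genes tested were 22.3% lower and 21.3% higher, and these few calls are not read as a response of meiotic genes. The HORMAD1 call was lost without vehicle set 1 (edgeR adjusted p = 0.228) and without palbociclib set 1, 2 or 3 (0.0591, 0.105 and 0.0623). It was also lost without PERK knockout replicate 2 (edgeR adjusted p = 0.0539). PSMC3IP, which encodes HOP2, a partner of DMC1, fell from 15.5 to 10.5 CPM (-0.56 ± 0.090), and its own partner MND1 was not called (-0.91, edgeR adjusted p = 0.0996).

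The sets differed in a minority of genes. A difference between sets passed the threshold for 903 of the 8478 called genes (10.65%) and for 1567 of all genes tested (8.074%). Among called genes at 10 CPM or more, the response varied most over sets for 6 genes. CYS1, which encodes the ciliary protein cystin-1, had log2 ratios of 1.43, 0.96 and 0.64 in sets 1, 2 and 3. KLHL24, a substrate adaptor of a ubiquitin ligase, had 1.78, 1.13 and 1.33, and CFAP58, a cilia and flagella protein, 1.58, 2.09 and 1.43. The gene CXXC4, an inhibitor of Wnt signalling, had -0.02, -0.65 and -0.72, so that set 1 did not share the fall. PDE1C, a calmodulin-regulated phosphodiesterase, had 1.35, 0.70 and 0.84. The non-coding ENSG00000261770 had 0.54, 0.57 and 1.18, and its call was lost in 9 alternatives. The edgeR adjusted p was 0.0583 with only the 6 wild-type libraries, 0.0905 with no filter on low counts and 0.122, 0.1002 and 0.0934 without vehicle sets 1, 2 and 3, and in the other 4 alternatives it lay between 0.0513 and 0.0677 (limma-voom included).

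Called genes were also counted by the kind, level and length of gene. Of 13819 protein-coding genes 24.5% rose and 27.1% fell, of 3226 long non-coding genes 15.4 and 10.8%, and of 1006 pseudogenes 11.4 and 9.44%. Of 4933 genes under 1 CPM with vehicle 14.2% rose and 4.62% fell, and of 2401 genes over 100 CPM 23.3% rose and 40.9% fell. Since the power of the test differs with the level, and a gene that passes the filter only through the palbociclib libraries had to rise, these shares do not measure the response of a class. Among protein-coding genes, those spanning over 100 kb (3008 genes) rose more often than they fell, 30.7 against 22.4%, while shorter genes fell more often: 21.7 and 23.8% under 10 kb, 23.13 and 29.96% from 10 to 30 kb, and 23.2 and 29.7% from 30 to 100 kb. The median level with vehicle was 22.0 CPM for the longest class and 15.2, 26.4 and 32.3 CPM for the others in order of length. The part of gene level in this pattern was not tested.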

How the data were processed

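Poly(A) RNA was sequenced from 9 libraries in 3 groups of 3, and 6 wild-type libraries are described here. The values the authors deposited are raw gene counts, whole numbers with no normalization. STAR 2.7.9a, Trim Galore, FastQC, CASAVA and DESeq2 are named, with build hg38, in the submitters' processing notes. Which program counted, with what strand setting and annotation, is not given in the sources used here. Reads of overlapping, antisense or near-identical genes may be divided unseen. Of 70116 gene IDs 62700 had a symbol, IDs without one held 0.104 to 0.116% of counts, and 58261 matched GENCODE release 29, which gave positions.

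From these counts, edgeR 4.0.16 (limma 3.58.1, R 4.3.3) fitted all 9 libraries in 1 model of 3 groups, with TMM factors (0.977 to 1.01), the default low-count filter on groups (19408 genes, 99.91% of counts), the robust quasi-likelihood F test and a biological coefficient of variation of 5.99% (residual degrees of freedom: 6). Changes beyond 1.5-fold were tested with glmTreat. Figures and tables were made with Python 3.11.15, pandas 2.3.3 and matplotlib 3.10.9. The fitting script was tested on simulated data. Replicates differed by more than sampling noise (3.73 to 12 in chi-square divided by its degrees of freedom).

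The members and the 42 gene lists were chosen with earlier results of these data known, and the MYC, HSP90 and meiotic lists after their values were seen. Named genes were the 12 highest and 12 lowest called fold changes at a mean of at least 5 CPM with groups that did not overlap and a regular symbol (no bare ID, clone, LINC, LOC or MIR name). Also named were the 5 largest gains and losses in CPM and up to 3 called members each way per list at 1 CPM or more. The others were the 6 called genes at 10 CPM or more whose log2 ratios (prior 0.5 CPM) varied most over sets, up to 5 genes each way that were off in 1 group, and the RB and DREAM genes. A few fragile ones are counted but not described, and some items are not reported here. RefSeq promoter windows were matched to protein-coding genes by symbol and synonym, using the first start listed.

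Over 12932 genes, deviations from group means correlated at 0.366, 0.187 and 0.407 between vehicle and palbociclib libraries of the same set, and at -0.38 to -0.00908 between different sets. All 3 same-set values were over 0.1, so the set numbers were taken to pair the libraries. Deviations from a group mean cancel within the group, so the negative values between sets are no added evidence of pairing. The main model leaves this pairing out, so its SE and adjusted p count differences between sets as spread. Alternatives were the set as a block, only the 6 wild-type libraries (also with the block, chosen after seeing the data), other normalization, filters and tools (DESeq2 1.42.0, limma-voom), and each library left out in turn.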

Additional observations from a re-analysis of the deposited data

How the results depend on the processing

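With the set as a replicate block, 4714 genes rose and 5048 fell, and 1090 changed beyond 1.5-fold. Genes lower beyond 1.5-fold numbered 269 with the block, 74 with DESeq2 and 95 with limma-voom, against 164 in the main model. Genes higher beyond 1.5-fold numbered 415 with DESeq2 and 408 with limma-voom against 631, and both directions together 489 and 503 against 795. The cause was not tested. With each of the 9 libraries left out in turn, 3621 to 4127 genes rose, 3655 to 4315 fell, and 643 to 813 passed 1.5-fold (509 to 645 higher, 133 to 174 lower). Other normalization, filters and the 6 libraries alone kept these counts within 1.5 times of the main ones. With a limit of 0.1 CPM, 0 genes were off with vehicle and 0 off with palbociclib.

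Of 294 genes recomputed, 34 lost their call in at least 1 of 17 alternatives, 4 gained one and 0 changed sign while called. The block took no call away and added that of HSP90B1, and with only the 6 libraries also those of CCND3 and MLXIP. The median of 6 of 38 lists changed sign in at least 1 alternative (among them ABC transporters, cadherins, cyclic nucleotide enzymes, fatty acid oxidation and TRIM genes).

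With only the 250 bases before the start, the shares of windows of genes that fell and did not fall were 2.78 and 1.81% for TTTCCCGC, 1.39 and 0.607% for TTTGGCGC, 4.14 and 2.42% for either, 9.58 and 8.43% for TTTGAA, 4.08 and 3.53% for GTCACGTG and 1.88 and 1.9% for GTAAACA. With any listed start, an alternative chosen after seeing the data, the shares for genes that fell and did not fall were 4.63 and 2.45% for TTTCCCGC, 6.86 and 3.26% for either E2F motif, 15.5 and 13.9% for TTTGAA, 2.98 and 3.98% for GTAAACA and 4.89 and 4.94% for GTCACGTG, the last in the opposite order to the main window. More than 1 start raises every share by construction.

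At 33674039 to 40933089 counts per library, genes under 0.25 CPM still held reads and may be transcribed. The lists hold genes of similar sequence, and their counting cannot be checked.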
